A study of Mus musculus with 3 samples.

Results

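Of 6779 NUR77 binding regions kept on chromosomes 1 to 19 of the mouse genome (build mm9), 1045 stood alone, with no other kept region within 200 kb on either side. They are called isolated regions here. A region is a stretch formed by joining overlapping or abutting peaks over the 3 replicate peak lists, and it was kept when at least 2 replicates had a peak in it. The isolated regions were chosen by their measured positions, through the gap to the previous and to the next kept region, and at a chromosome's first or last region through the 1 existing gap. The other 5734 kept regions are called the remaining regions. Joining gave 12399 regions of any support on these chromosomes, and 86 kept regions of chromosome X were not used.

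The data are chromatin immunoprecipitation sequencing (ChIP-seq) peaks of NUR77 carrying an HA tag, made in C2C12, an established line of mouse myoblasts (muscle precursor cells). All 3 samples, numbered 1 to 3, belong to 1 group: a stable line bearing pINDUCER20b-HA-NUR77, a construct that expresses the tagged receptor when doxycycline is given, treated with 1 µg/mL of the drug for 18 h. An uninduced culture or an input library was not analysed here, and the receptor was overexpressed, so a peak says where tagged NUR77 was recovered at these induced levels. The labels name C2C12 for all samples, whereas the series title speaks of macrophages, and they do not say whether the replicates are separate experiments or whether the line is 1 clone.

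NUR77, the product of Nr4a1, is an orphan nuclear receptor of the NR4A family, transcription factors that stimulated cells induce quickly. It can bind DNA as a monomer at the NGFI-B response element, as a dimer at the Nur-responsive element, and together with the retinoid X receptor. In skeletal muscle the family is known for its part in glucose and lipid metabolism. Binding sites of such factors often lie in groups within enhancers and promoters, and an isolated site is one for which these lists held no reproducible partner nearby. A sequence or an annotation of build mm9 was not used here, so the regions are described by position and peak values, without genes or motifs.

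The replicate lists held 4468, 7756 and 10817 peaks in replicates 1, 2 and 3. Each peak carries a score given by the authors' peak caller, and the lowest was 70.02, 70.01 and 70.01 in the same order. The statistic behind the score was not stated, so scores were compared as percentiles within a list, where 100 is the highest score. Sequencing depth was not given.

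Isolation was a matter of degree. The gap on the nearer side had a median of 336 kb among the isolated regions, with quartiles at 246 and 549 kb, and it exceeded 500 kb in 288 of them and 1 Mb in 92. On the farther side the median gap was 865 kb. A chromosome's first region was isolated 9 times and its last region 11 times. At the threshold, the closest cases inside it were a region of chromosome 6 from 7527991 to 7528456, with a gap of 200.2 kb, one of chromosome 7 from 17323487 to 17323836, with 200.35 kb, and one of chromosome 2 from 80528459 to 80528944, with 201 kb. The closest cases outside it were one of chromosome 13 from 104968558 to 104969010, with 199.7 kb, one of chromosome 5 from 137548204 to 137548503, with 199.5 kb, and one of chromosome 14 from 34260582 to 34260881, with 199.4 kb. In the same order, their mean score percentiles were 89.4, 29.3 and 97.6 inside and 84.7, 26.7 and 31.2 outside.

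The leading isolated regions, picked by their scores, also ranked high in the whole set. Isolated regions were still fewer at the top than their share: 8 of the leading 100 (8%), compared with 15.3% of all kept regions with 3 replicates. Ranked by mean score percentile among the 3555 kept regions with peaks of all 3 replicates, the leading 10 isolated regions stood between place 3 and place 109. The first lay on chromosome 17 at 46513754 to 46514260 and scored 1118.1, 1333.2 and 1553.0 in replicates 1, 2 and 3. Its nearest kept neighbour was 244 kb away. The second, on chromosome 16 at 28706898 to 28707447, scored 1033.3, 1216.0 and 916.9. It had no kept region within 1007 kb and no region of a single list within 200 kb.

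The third, on chromosome 2 at 98502695 to 98503008, scored 864.4, 626.1 and 860.6 and had gaps of 4763 and 3067 kb. It was 314 bp wide, and its peak measured 300 bp in each list. Among the 19 isolated regions with all 3 replicates and a mean percentile over 97, it was the only one under 400 bp, and their median was 518 bp. Of the 146 remaining regions above the same level 0 were under 400 bp. This stretch of chromosome 2 is known from mouse sequencing work as one where reads pile up in unrelated libraries, and whether that bears on its peaks here was not tested. Leaving it out moved the overall score difference described below from -2.10 to -2.13 percentile points.

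The other 7 of these 10 regions were 457 to 555 bp wide. Chromosome 9 held the fourth at 106307597 to 106308147, with scores of 556.0, 839.5 and 815.9. Next came chromosome 17 at 26998304 to 26998760, with 566.7, 883.8 and 755.2, and chromosome 6 at 91059439 to 91059956, with 582.5, 780.6 and 803.6. The seventh, on chromosome 3 at 130856775 to 130857276, scored 523.5, 691.2 and 967.4. In 9 of the 10 regions replicate 1 had a lower score than replicate 2, and only on chromosome 16 and at the chromosome 2 site described above was its score above that of replicate 3. The eighth lay on chromosome 19 at 23215263 to 23215762, with 525.3, 729.8 and 747.3. The ninth, on chromosome 10 at 129871173 to 129871727, was the last kept region of its chromosome and differed most between lists, with 409.9 in replicate 1 and 991.5 and 1117.5 in the others. The tenth lay on chromosome 2 at 24308645 to 24309198, with 503.7, 595.3 and 1019.1.

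**Figure D1:**
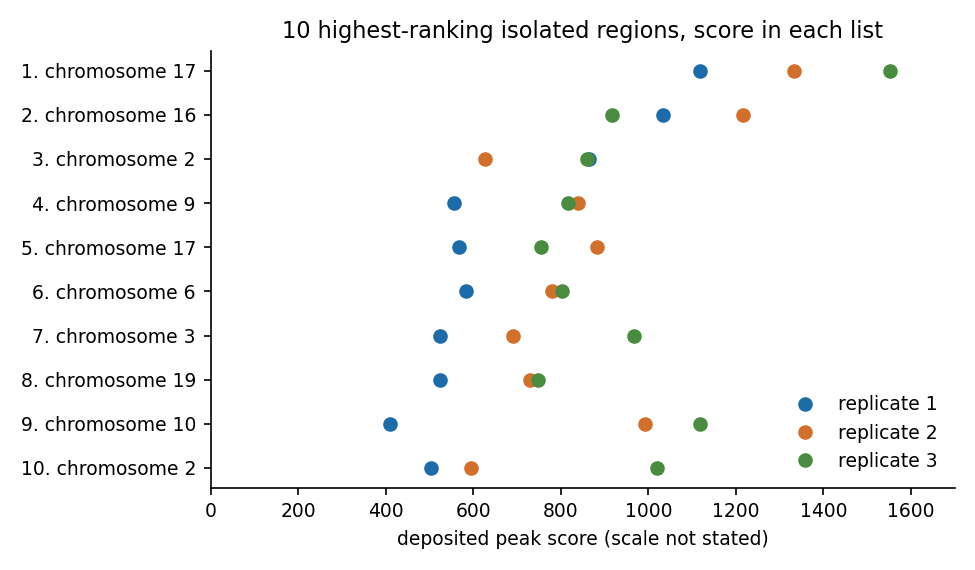
Deposited peak score (x axis, scale not stated) of the 10 isolated regions with the highest mean score percentile (y axis, rank and chromosome); each point is 1 replicate list. The first region, on chromosome 17, reaches 1118.1 to 1553.0, and the ninth, on chromosome 10, runs from 409.9 to 1117.5.

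The 5 regions with the largest clearance ranged from low to high scores. The largest clearance belonged to chromosome 4 at 24912854 to 24913234, with gaps of 5415 and 7354 kb. It scored 75.9, 148.0 and 146.9, or percentiles of 9.96, 62.6 and 60.0 in replicates 1, 2 and 3. On chromosome 7 at 46925037 to 46925736, a 700 bp region with gaps of 7867 and 4853 kb scored 93.1, 77.7 and 152.8. On chromosome 12 at 21240569 to 21240868, the gaps were 3966 and 4152 kb, and the scores were 94.1 in replicate 2 and 89.0 in replicate 3, with no peak in replicate 1. Chromosome 3 differed: its last kept region, at 159548275 to 159548676, stood 3867 kb from its neighbour and scored 359.8, 514.5 and 508.0. On chromosome 15 at 19087195 to 19087633, with gaps of 6309 and 3181 kb, the scores were 182.6, 350.9 and 280.3. The first 3 of these 5 thus stayed at or below the 63rd percentile in every list, and the last 2 lay between the 76th and the 97th.

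Scores varied widely among the isolated regions. Of the 544 with all 3 replicates, 364 scored above 100 in every list, 107 above 200 and 9 above 500. Of all 1045, 131 stayed under 100 in every list that held them. These counts use raw scores and were not made for the remaining regions, so they describe the isolated regions only. The highest scores reached 1118.1, 1333.2 and 1553.0, all at the chromosome 17 site, compared with 1850.6, 1796.3 and 1880.0 among the remaining regions.

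Isolated regions were found in all 3 replicates about as often as the remaining regions. All 3 lists had a peak in 544 of 1045 isolated regions, or 52.1% (95% Wilson interval 49.0 to 55.1%), and in 3011 of 5734 remaining regions, or 52.5% (51.2 to 53.8%). The background over all kept regions was 52.4%. The difference was -0.45 percentage points, with a 95% interval from -3.75 to 2.83, so the counts are compatible with either group being ahead by up to about that much. These intervals cover counting error over regions only. Replicates 2 and 3 alone supported 387 isolated regions (37.0%), replicates 1 and 3 alone 80 (7.66%), and replicates 1 and 2 alone 34 (3.25%). Among the remaining regions these shares were 38.8%, 6.24% and 2.41%.

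The list that an isolated region was absent from was thus mostly the shortest, replicate 1. Replicate 1 had a peak in 63.0% of isolated and 61.2% of remaining regions, replicate 2 in 92.3% and 93.8%, and replicate 3 in 96.7% and 97.6%. The 387 isolated regions absent from replicate 1 had median percentiles of 34.7 in replicate 2 and 47.3 in replicate 3. These lay below the medians of all isolated regions with a peak in those lists, 55.9 and 65.7. Remaining regions absent from replicate 1 stood at 37.8 and 50.4. For the 80 isolated regions absent from replicate 2, the medians were 17.3 in replicate 1 and 46.0 in replicate 3, and for the 34 absent from replicate 3 they were 23.0 and 29.6 in replicates 1 and 2.

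Support among the kept regions is bounded by the rule, which asks for 2 lists, so the regions were also chosen again from 2 lists and looked up in the third. With replicate 1 held out, 620 of 1066 isolated regions had a peak in it, or 58.2% (55.2 to 61.1%), compared with 57.5% (56.1 to 58.9%) of the remaining regions. In replicate 2 the shares were 87.6% (85.6 to 89.3%) of 1174 and 89.6% (88.5 to 90.7%). Replicate 3 held 94.97% (93.5 to 96.1%) of 1134 isolated and 95.6% (94.7 to 96.3%) of remaining regions. The differences were 0.65, -2.07 and -0.58 points, a mean of -0.67 ± 1.37 (SD, n = 3 lists), which is smaller than their spread (two-sided exact sign-flip permutation test over the lists, p = 0.75). The smallest p that 3 lists allow is 0.25. The 3 choices share lists and are not fully independent. Of the regions isolated without replicates 1, 2 and 3, 931, 624 and 578 overlapped an isolated region chosen from all 3 lists. The same numbers of isolated regions had peaks in both of the lists used, so these overlaps restate the support and are no further check.

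Scores of isolated regions were slightly lower than those of the remaining regions in the lists that chose them. In replicate 1 the median percentile was 50.9 for 658 isolated and 53.1 for 3507 remaining regions. Replicate 2 gave 55.9 and 58.0, and replicate 3 gave 65.7 and 67.7. The difference was negative in 3 of 3 lists, at -2.20, -2.14 and -1.96 points, with a mean of -2.10 ± 0.13 (SD, n = 3; exact sign-flip permutation p = 0.25, the smallest possible). The difference is small beside the spread within a group, since the quartiles of the isolated regions in replicate 1 were 25.4 and 73.5. As raw scores, the isolated medians were 116.2, 132.2 and 163.8 over replicates 1 to 3, and the remaining medians 121.1, 136.9 and 170.9.

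**Figure D2:**
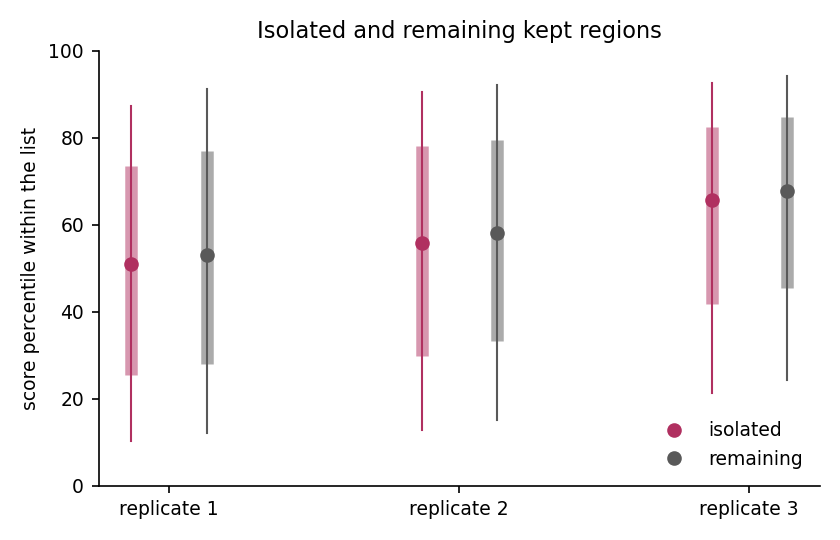
Score percentile within each list (y axis) of isolated and remaining kept regions in the 3 replicates; points are medians, thick bars quartiles and thin lines the 10th to 90th percentiles. The isolated medians sit about 2 points below the remaining ones in each list, inside widely overlapping distributions.

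This shift depended on how isolation was drawn. With a gap over 500 kb it was 0.71, 1.09 and -0.07 points in replicates 1, 2 and 3, a mean of 0.57. Without replicate 3 it was 0.32 in replicate 1 and -2.23 in replicate 2. Each list was also held out in turn, with the regions chosen from the other 2 lists. Where a peak was found in the held-out list, the shift was 0.54, -2.11 and -1.98 points in replicates 1, 2 and 3. Its mean was -1.18 ± 1.50 (SD, n = 3 lists), negative in 2 of 3 (exact sign-flip permutation p = 0.5). Among regions of the main choice with all 3 replicates, the shift was 1.02, -2.10 and -2.68 points. Among those with exactly 2 it was -6.46, -3.63 and -3.32. By chromosome, the isolated median was lower in all 3 lists on 9 of 19 chromosomes and higher in all 3 on 3, namely 3, 11 and 17. On chromosome 3 the isolated regions stood 13.9, 7.68 and 9.75 points higher, and on chromosome 14 they stood lower, with differences of -25.4, -9.62 and -7.16 points. Once the percentiles were centred on each chromosome's median, an alternative chosen after seeing the data, the mean shift was -1.36 ± 0.32 points.

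Isolated regions were also less frequent at the top of the score range, by an amount that varied between lists. In replicate 1, 47 of 658 isolated regions (7.14%, interval 5.41 to 9.37%) reached the highest score decile of the list, compared with 11.3% (10.3 to 12.4%) of the remaining regions. Replicate 2 gave 10.8% (8.97 to 12.9%) and 12.4% (11.5 to 13.3%), and replicate 3 gave 14.6% (12.6 to 17.0%) and 16.5% (15.5 to 17.5%). The intervals, which cover counting error over regions only, were apart in replicate 1 and overlapped in the other lists. The mean difference was -2.52 ± 1.44 points (SD, n = 3 lists), negative in 3 of 3 (exact sign-flip permutation p = 0.25, the smallest possible). Without replicate 1 the mean difference was -1.49 points. This comparison was added after the scores were seen. At the very top, isolated regions made up 2 of the 50 kept regions with all 3 replicates that had the highest mean percentile, 8 of the leading 100 and 55 of the leading 500, or 4%, 8% and 11%, compared with 15.3% of all 3555.

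Along the gap as a scale, high scores thinned out over short distances. The share of peaks in the highest decile was 14.7%, 14.9% and 19.6% in replicates 1, 2 and 3 for kept regions with a neighbour within 10 kb. It was 9.09%, 11.3% and 14.3% at 50 to 100 kb and 9.52%, 10.6% and 14.1% at 100 to 200 kb. Isolated regions with a gap of 200 to 500 kb had 7.49%, 10.5% and 15.0%, and those beyond 500 kb 6.28%, 11.6% and 13.6%. Most of the drop thus came below 100 kb, and beyond it the lists did not share an order. All 3 replicates were present in 54.7% (52.1 to 57.3%) of regions with a neighbour within 10 kb and in 51.04% (45.3 to 56.8%) of those beyond 500 kb. Within the isolated regions, mean score percentile and gap were unrelated, with a Spearman rho of 0.01 across 1045 regions, given as a description.

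**Figure D3:**
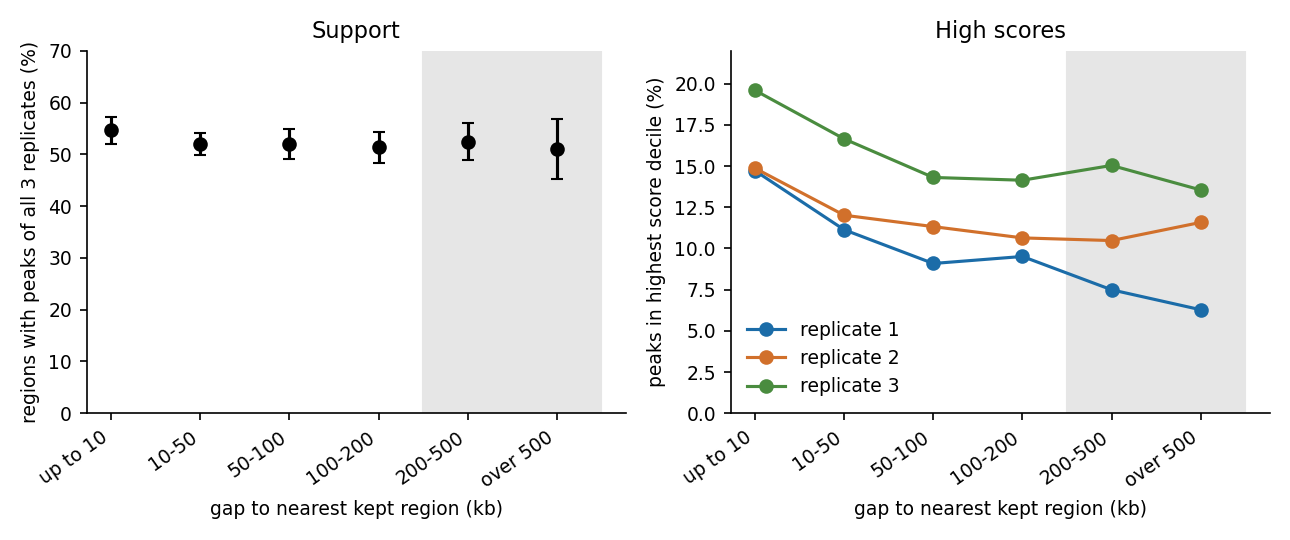
Kept regions by the gap to the nearest other kept region (x axis, kb); the shaded bins are the isolated regions, and bins hold 288 to 2147 regions. Left, the share with peaks of all 3 replicates (%, bars are 95% Wilson intervals) stays between 51.04 and 54.7%. Right, the share of peaks in the highest score decile (%, 1 line per replicate). Between the first and the last bin it goes from 14.7 to 6.28% in replicate 1, 14.9 to 11.6% in replicate 2 and 19.6 to 13.6% in replicate 3.

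Peak widths differed little between the groups. Isolated and remaining regions had the same median peak width before joining, which was 300 bp in the first 2 replicates and 350 bp in the third. Quartiles of peak width fell on multiples of 50 bp in every list, so equal medians can hide a smaller difference. Mean widths of isolated and remaining regions were 310 and 314 bp for replicate 1, 321 and 323 bp for replicate 2 and 359 and 364 bp for replicate 3. After joining, both groups had a median of 400 bp. The widest isolated region measured 751 bp, on chromosome 9 at 6643647 to 6644397, and the widest remaining region 1216 bp. Regions over 600 bp numbered 15 of 1045 isolated and 118 of 5734 remaining.

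Peak positions differed between replicates by similar distances in the groups. The midpoints of the peaks of replicates 1 and 2 lay a median of 29 bp apart in 578 isolated regions and 29 bp apart in 3149 remaining ones. For replicates 1 and 3 the medians were 29 and 30 bp, and for replicates 2 and 3 they were 27 and 28 bp, all well below the width of a peak. Peaks share a region only where they were joined, which by itself limits these distances in both groups. Scores ranked alike between lists in both groups, with a Spearman rho of 0.73, 0.72 and 0.76 for the 3 pairs of lists in isolated regions and 0.73, 0.71 and 0.75 in remaining ones. These correlations run across regions within the same libraries and are given as descriptions. The authors' merged list, which holds coordinates only, had an interval in all 1045 isolated regions, 2.02 per region, compared with 2.03 per remaining region. A single interval lay in 501 isolated regions (47.9%) and 2722 remaining ones (47.5%), close to the shares with peaks in exactly 2 lists. The merged list belongs to the same series, so these values are no separate check on the regions. The intervals covered a median of 300 bp in both groups.

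Isolated regions were rarer on crowded chromosomes, as the rule implies. They made up 6.96% of the kept regions of chromosome 15 and 8.69% of those of chromosome 10, and up to 21.99% on chromosome 13 and 23.1% on chromosome 9. Kept regions per Mb of chromosome span were 3.90 and 4.63 on chromosomes 15 and 10 and 2.07 and 2.15 on chromosomes 13 and 9. Over the 19 chromosomes the isolated share fell with density (Spearman rho -0.91, a description, since both values count the same regions). In isolated regions per Mb the chromosomes ranged from 0.27 on chromosome 15 to 0.53 on chromosome 11, with 0.44 over all. Some chromosomes departed from that order. Chromosome 11 had 63 isolated regions (14.0%) despite 3.798 kept regions per Mb, whereas chromosome 15 had 27 at 3.90 per Mb. Chromosome 19 was similar to chromosome 11, with 14.2% isolated at 3.54 kept regions per Mb. Chromosome 16 departed the other way, with 10.4% at 2.95 per Mb.

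**Figure D4:**
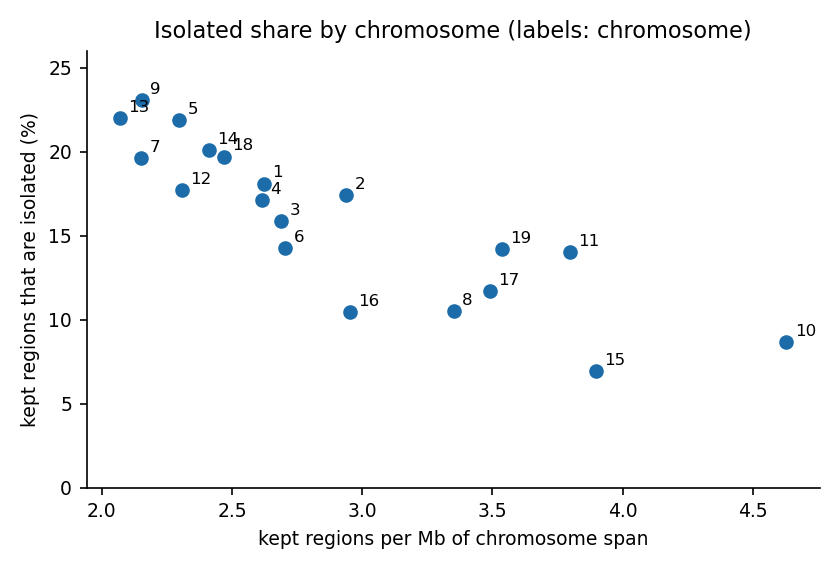
Share of kept regions that are isolated (y axis, %) against kept regions per Mb of span (x axis); each point is 1 of 19 chromosomes, labelled by its number. Chromosomes 15 and 10 lie lowest, at 6.96 and 8.69%, and chromosome 9 highest, at 23.1%.

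The rule links neighbours, since a gap over 200 kb counts for the regions on both of its sides. An isolated neighbour stood next to 721 of the 1045 (69.0%), and 437 lay in 114 strings of 3 or more. The longest strings had 9 members each, both on chromosome 2, from 62288345 to 69189994 and from 105636345 to 109398058. Another string, of 6 regions on chromosome 14, ran from 82465107 to 99410406 and was spread over 16.9 Mb. These counts come from the gaps that chose the regions and are a description only.

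Beyond 200 kb the surroundings were not empty. From 0.2 to 0.5 Mb away, isolated regions had 3.29 kept regions per Mb and remaining regions 4.94. At 2 to 5 Mb the densities were 2.79 and 3.14, compared with 2.85 over the whole of the spans. The isolated regions thus lay in surroundings of near average density that were thinner than those of the remaining regions at every distance counted. Since the rule split the groups by these same positions, thinner surroundings are partly built in, and the densities are a description.

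Many isolated regions had company from a single list, which the rule does not count. A region found in a single list lay within 200 kb of 645 of 1045 isolated regions (61.7%), and of 84.0% of the remaining ones. The other 400 isolated regions (38.3%, interval 35.4 to 41.3%) had no peak of any list within 200 kb. Around isolated regions, single-list regions stood at 2.93 per Mb within 0.2 Mb and at 2.36 per Mb from 2 to 5 Mb away, so they were no scarcer close by. Around remaining regions these densities were 5.88 and 2.57. Of the 1152 single-list regions within 200 kb of an isolated region, 842 (73.1%) came from replicate 3, 259 (22.5%) from replicate 2 and 51 (4.43%) from replicate 1. These shares were close to those over all 5620 single-list regions, at 72.0%, 23.5% and 4.47%. In its own list an isolated region's peak was over 200 kb from any other peak in 95.6% of cases in replicate 1, 77.3% in replicate 2 and 47.7% in replicate 3. Over all peaks of chromosomes 1 to 19 these shares were 27.2%, 13.4% and 8.08%. The rule chose the isolated regions on the same positions, so these values are a description.

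**Figure D5:**
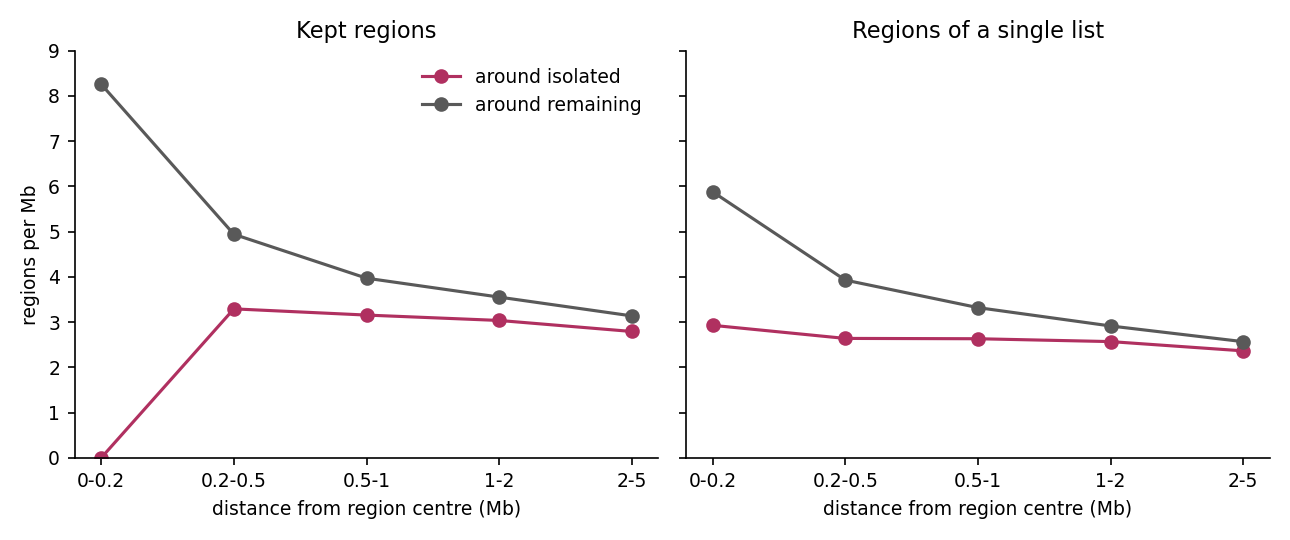
Kept regions per Mb (left) and regions of a single list per Mb (right) by distance from the centre of isolated and remaining regions (x axis, Mb). The isolated value of 0 within 0.2 Mb at left is set by the rule; at right the isolated regions have 2.93 single-list regions per Mb within 0.2 Mb and 2.36 at 2 to 5 Mb.

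The 400 regions alone in all lists had peaks of all 3 replicates about as often as the other isolated regions, and their scores were lower. All 3 replicates had a peak in 208 of them, or 52% (47.1 to 56.9%), compared with 52.1% (48.2 to 55.9%) of the 645 with single-list company, a difference of -0.09 points (95% interval -6.31 to 6.11). Their median percentiles were 48.3, 54.2 and 62.8 in replicates 1, 2 and 3, compared with 52.2, 56.5 and 66.5. The mean difference was -3.30 ± 0.84 points (SD, n = 3 lists), negative in 3 of 3 (exact sign-flip permutation p = 0.25, the smallest possible). The 92 regions with more than 1 Mb on the nearer side had medians of 55.3, 58.2 and 70.4, and 45 of them (48.9%, interval 38.9 to 59.0%) had all 3 replicates. These medians were above those of the isolated regions as a whole.

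Isolation also rests on the lists being complete. The peaks of each list are numbered by position, and the numbers have gaps: 160 are missing in replicate 1, 289 in replicate 2 and 490 in replicate 3. For 264 isolated regions (25.3%) at least 1 list lacked a number at a place that could lie within 200 kb, so a peak not listed may stand near them. The same held for 2402 of 5734 remaining regions (41.9%). The other 781 isolated regions had no such place. Among these, all 3 replicates were present in 51.3% (47.8 to 54.8%), and the median percentiles were 50.1, 55.9 and 64.6.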

How the data were processed

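Anti-HA ChIP-seq peaks of 3 replicates of 1 group were analysed. Per the labels' protocols, crosslinking used disuccinimidyl glutarate (2 mM, 45 min) followed by formaldehyde (1%, 15 min). The authors deposited 1 peak list per replicate, with coordinates, a peak name carrying the caller's name MACS and a score, plus a merged list of coordinates. The deposited score is the caller's own, and the sources used here do not give its statistic, the caller's settings or its control. Per the submitters' processing notes, coordinates refer to mm9. The number of reads is unknown.

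Python 3.11.15 with SciPy 1.17.1, NumPy 2.4.6 and pandas 2.3.3 served to join and compare the lists. Gaps were measured between region edges. The highest-scoring peak of a list stood for that list in a region, and percentiles were taken over the whole list. Differences between isolated and remaining regions were computed in each list and set against the spread over lists with an exact sign-flip permutation test. Intervals on shares are 95% Wilson intervals, and those on differences of shares combine them (Newcombe). The code was tested on simulated data. P-values measure only the spread between these lists, which may be technical.

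The text names the 10 isolated regions with all 3 replicates and the highest mean percentile, the 5 with the largest nearer gap, and 3 on each side of the threshold. Regions, lists and comparisons were chosen with earlier results of these data known. The gap, the set of neighbours, the support, the score threshold, the list length, the joining, the overlap and each replicate were varied.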

Additional observations from a re-analysis of the deposited data

How the results depend on the processing

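Of 87 alternative values, 65 stayed within the spread between lists, within the counting interval or, for counts, within 1.5 times the reported count, and 22 moved further. The number of isolated regions was 2066 with a gap over 100 kb, 288 with a gap over 500 kb and 400 when regions of a single list counted as neighbours, which follows from how these rules are built. It ranged from 1025 to 1174 under the other alternatives, but the number of kept regions behind it changed. It was 1066 of 6168 kept regions (17.3%) without replicate 1 and 1174 of 3992 (29.4%) without replicate 2. Without replicate 3 it was 1134 of 3721 (30.5%), compared with the reported 1045 of 6779. The mean difference in score percentile, isolated minus remaining, was below 0 in 14 of 15 alternatives, but 10 of the 15 moved beyond the spread between lists. It was -3.41 with a gap over 100 kb, 0.57 with a gap over 500 kb and -4.37 with single-list neighbours. Counting only regions with all 3 replicates gave -1.39, peaks above the median score -3.23, equal numbers of best peaks -1.80, a reciprocal overlap of 50% -2.34, and centring on chromosomes -1.36. Leaving out 1 replicate gave -2.47 to -0.95, the latter without replicate 3. The difference in median peak width was 10 bp with a gap over 500 kb and 16.7 bp with equal numbers of best peaks, and 0 in the other 11 alternatives. The share found in the held-out list differed by 1.39 points among peaks above the median score and was below 0 in the other 8 alternatives. The difference in midpoint distance was 1.08 bp with single-list neighbours, 0 bp for regions with all 3 replicates and for equal numbers of best peaks, and -2 to 0 bp without 1 replicate. The share in the highest decile was lower for isolated regions in all 14 alternatives run, with -4.04 points among peaks above the median score and -1.49 points without replicate 1 as the ends of the range. Except where the rule itself sets the number, the cause was not tested. No support in all 3 lists and no held-out share can be given without 1 replicate, because 2 lists remain. Sequencing depth is unknown, so whether a deeper library would give isolated regions a neighbour was not tested.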
